A study of Mus musculus with 10 samples.

Results

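The mitochondrially encoded subunits of respiratory complex I are the products of 7 genes, *mt-Nd1*, *mt-Nd2*, *mt-Nd3*, *mt-Nd4*, *mt-Nd4l*, *mt-Nd5* and *mt-Nd6*. They were chosen by gene name from the 55359 genes of the deposited table, and all 7 were found there. The set was picked because *mt-Nd3* had been seen to be among the most clearly raised genes between the groups compared here, so the fold changes of the members are given as a description, without a test.

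The study silenced *Fndc1*, which encodes a protein with fibronectin type III domains, in C2C12 cells, an established line of mouse myoblasts, and RNA-seq was run on 10 libraries. The 5 si-Control libraries came from C2C12 cells given a scrambled siRNA, and the 5 si-*Fndc1* libraries from C2C12 cells given an siRNA against *Fndc1*. Both groups received 100 nM siRNA, were grown with 20% fetal bovine serum and were collected, by the labels, after 4 days of differentiation in 2% horse serum, whereas the text of the series gives 48 h after transfection. Nothing in the labels says that the 5 libraries of a group came from separate cultures, so each SD and p-value measures the spread between these libraries. Both groups are 1 cell line with transient knockdown by siRNA, with 1 siRNA per group.

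Complex I, or NADH:ubiquinone oxidoreductase, takes electrons from NADH to ubiquinone and pumps protons across the inner mitochondrial membrane. Its membrane arm is built around the hydrophobic subunits that mitochondrial DNA encodes, while the core subunits of its peripheral arm and all accessory subunits come from nuclear genes. Mitochondrial DNA is copied into long RNAs from both strands, which are cut into mRNAs, rRNAs and tRNAs, so the level of each mRNA also depends on how it is processed and how long it lasts. Differentiating muscle cells are rich in mitochondria.

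Of the 37 genes listed for the mitochondrial genome, 37 had the same position and strand in the reference annotation of build NCBIM37, so the sequence of each member could be read from that build. The first 24 bases of each gene are printed 5′ to 3′ on its own strand with the start codon in capitals, because the members begin with different start codons. *mt-Nd6* is the single member on the opposite strand to the others.
mt-Nd1: GTGttctttattaatatcctaaca
mt-Nd2: ATAaatcctatcacccttgccatc
mt-Nd3: ATTaacctgtacactgttatcttc
mt-Nd4l: ATGccatctaccttcttcaacctc
mt-Nd4: ATGctaaaaattattcttccctca
mt-Nd5: ATCaatattttcacaacctcaatc
mt-Nd6: ATGaataattatatttttgtttta
These windows start at chrM:2751 for *mt-Nd1*, chrM:3914 for *mt-Nd2*, chrM:9459 for *mt-Nd3*, chrM:9877 for *mt-Nd4l*, chrM:10167 for *mt-Nd4* and chrM:11742 for *mt-Nd5* on the plus strand. The window of *mt-Nd6* covers chrM:14047-14070 on the minus strand.

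The libraries held 56332844 to 75995168 counted reads. *Fndc1* was at 24.7 to 29.6 FPKM (fragments scaled by gene length and library size) in si-Control and at 18.7 to 23.5 FPKM in si-*Fndc1*, without overlap, a fall of 0.40 ± 0.07 (SE) on the log2 scale (quasi-likelihood test of edgeR, Benjamini-Hochberg correction, adjusted p = 0.000934). The ratio of means was 0.752, so most of the transcript was still present in the knockdown libraries. All 10 markers of differentiating C2C12 muscle cells were detected at a mean of at least 1 FPKM, and their sum, led by *Acta1*, overlapped between groups (4108 to 4623 FPKM in si-Control, 3966 to 4753 FPKM in si-*Fndc1*). In the same fit 4 of the 10 rose (*Ckm* by 0.39, *Tnnt1* by 0.36, *Mymk* by 0.26 and *Myod1* by 0.16) and 1 fell (*Mymx*, at −0.17), beside 17.3% of tested genes upward and 17.2% downward. The part of these markers in the *mt-Nd* levels was not tested.

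*mt-Nd3*, a small subunit at the junction of the peripheral and membrane arms, showed the largest difference of the members. Its level in the si-Control libraries was 454, 513, 459, 405 and 488 FPKM, and in the si-*Fndc1* libraries 950, 871, 936, 1005 and 947 FPKM. Every si-*Fndc1* library was thus above every si-Control library, and the spread within each group was small beside the gap. The mean went from 464 ± 40.4 (SD, n = 5) to 942 ± 48.0 FPKM (SD, n = 5), a ratio of 2.03 and a log2 fold change of 1.03 ± 0.06 (SE). By p over the 13548 genes tested, *mt-Nd3* ranked 10, and 6 among the raised genes, which is how it came to be chosen. Since this is bulk RNA, more cells rich in a transcript and more of that RNA per cell cannot be told apart.

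*mt-Nd1*, which helps to form the site where ubiquinone binds, was the most abundant member by counts on the mitochondrial genes alone. It measured 4725, 5185, 4599, 4431 and 4727 FPKM in si-Control and 6129, 5923, 6740, 6639 and 6442 FPKM in si-*Fndc1*. The groups did not overlap, with means of 4733 ± 280.2 (SD, n = 5) and 6374 ± 344 FPKM (SD, n = 5), a ratio of 1.35 and a log2 fold change of 0.44 ± 0.05 (SE). Over all genes of the table it ranked 4 by mean FPKM. *mt-Nd6*, a subunit of the membrane arm encoded on the light strand, measured 1679, 1658, 1495, 1741 and 1981 FPKM in si-Control. It was at 2298, 2131, 2280, 2364 and 2695 FPKM in si-*Fndc1*, a ratio of 1.38 and a log2 fold change of 0.47 ± 0.08 (SE). Its groups did not overlap either, although si-Control replicate 5 and si-*Fndc1* replicate 2 stood close to each other.

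*mt-Nd2*, *mt-Nd4* and *mt-Nd5* encode the antiporter-like subunits that carry out proton pumping, and they did not move by the same amount. *mt-Nd4* measured 2088, 2183, 2048, 1978 and 2231 FPKM in si-Control and 3023, 2809, 3210, 3279 and 3050 FPKM in si-*Fndc1*. Its groups were well apart, with a ratio of 1.46 and a log2 fold change of 0.55 ± 0.05 (SE). *mt-Nd5* measured 2506, 2603, 2412, 2519 and 2601 FPKM in si-Control and 2684, 2591, 2920, 2824 and 2845 FPKM in si-*Fndc1*. Only si-*Fndc1* replicate 2 fell among the si-Control libraries, and the ratio was 1.10 with a log2 fold change of 0.14 ± 0.04 (SE). *mt-Nd2* measured 1853, 2024, 1866, 2013 and 2227 FPKM in si-Control and 2146, 2058, 2299, 2177 and 2244 FPKM in si-*Fndc1*. Here 2 of 5 si-*Fndc1* libraries were above all si-Control libraries, and the ratio was 1.09 with a log2 fold change of 0.14 ± 0.05 (SE).

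*mt-Nd4l*, a small membrane subunit, had the widest spread of the members within si-Control. It measured 2749, 3328, 3096, 3021 and 4044 FPKM in si-Control and 3410, 3097, 3510, 3607 and 3742 FPKM in si-*Fndc1*. The highest value of all belonged to si-Control replicate 5, and no si-*Fndc1* library exceeded it. The ratio was 1.07 and the log2 fold change 0.10 ± 0.09 (SE), which became 0.20 with si-Control replicate 5 left out and 0.05 with replicate 1 of that group left out.

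**Figure D1:**
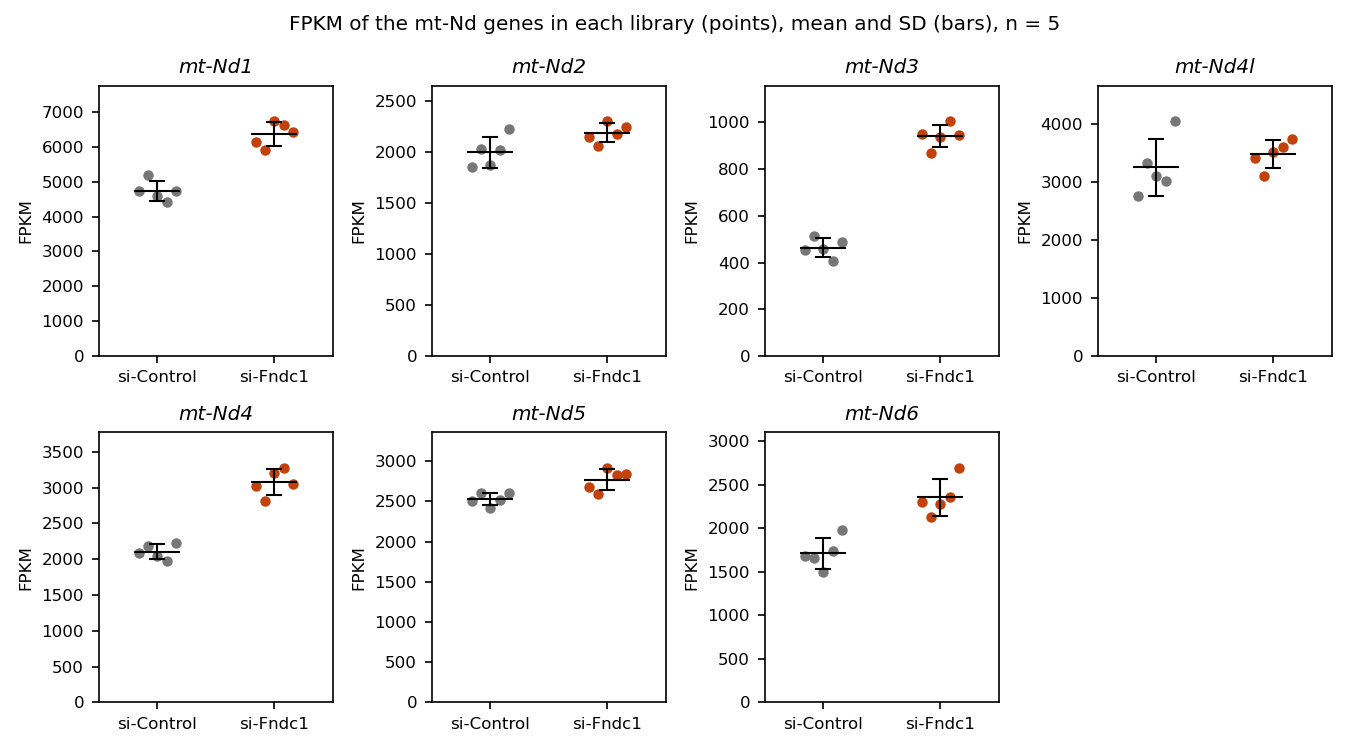
Each panel plots the level of 1 *mt-Nd* gene in FPKM (y axis from 0) for the 5 si-Control and 5 si-*Fndc1* libraries, with points for libraries and bars for the mean and SD. The groups are apart for *mt-Nd3*, *mt-Nd4*, *mt-Nd1* and *mt-Nd6* and overlap for *mt-Nd2*, *mt-Nd5* and *mt-Nd4l*.

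Of the 7 members, 5 passed the threshold of an adjusted p under 0.05 upward and 0 downward, beside 34.4% of the 13548 genes tested in either direction and 17.3% upward. All 7 passed the filter of a mean of at least 0.5 FPKM. The groups did not overlap for 4 of 7 members, all higher in si-*Fndc1*, beside 12.1% of tested genes that were higher in every si-*Fndc1* library and 25.1% that did not overlap either way. Since the set was picked on this contrast, nothing can be read from these counts about the members. The median log2 fold change of the 7 was 0.44, against 0.0043 over all genes tested.

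The direction of most members depended on how base composition was treated. The members held 33.0 to 41.1% G and C, against a median of 50.5% over tested genes, and only 2 of 11185 genes with a known GC content, *mt-Nd3* included, were as low as *mt-Nd3*. Across those 11185 genes, which share the same libraries, the log2 fold change and GC content correlated at a Spearman rho of −0.52, given as a description. When each library was corrected by a smooth curve on GC content and length, the log2 fold change of *mt-Nd3* was 0.42 and that of *mt-Nd4* was 0.07. The other members changed sign: *mt-Nd1* was at −0.06, *mt-Nd2* at −0.38, *mt-Nd5* at −0.28, *mt-Nd6* at −0.13 and *mt-Nd4l* at −0.40. The same genes without the correction gave 1.04 for *mt-Nd3* and 0.44 for *mt-Nd1*. The part of base composition in the differences was not tested further, and the members lie at the edge of the range over which the curve was fitted.

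A scale that needs no nuclear gene is the share of each member among the counts of the 13 mitochondrially encoded mRNAs. On it *mt-Nd3* made up 0.352 ± 0.0163% (SD, n = 5) of these counts in si-Control and 0.570 ± 0.0244% (SD, n = 5) in si-*Fndc1*, a log2 difference of 0.69. *mt-Nd4* went from 6.34 ± 0.122% to 7.36 ± 0.172%, a log2 difference of 0.21. The differences were smaller for *mt-Nd6* at 0.13 and *mt-Nd1* at 0.10. With the nuclear copies joined to their genes, the log2 differences in share were 0.66 for *mt-Nd3*, 0.13 for *mt-Nd4*, 0.06 for *mt-Nd6* and 0.03 for *mt-Nd1*. *mt-Nd2*, *mt-Nd5* and *mt-Nd4l* had a lower share in si-*Fndc1*, with log2 differences of −0.20, −0.20 and −0.23, although their mean FPKM was slightly higher. The 7 members together held 34.6 to 35.9% of the mitochondrial mRNA counts of a si-Control library, against 34.4 to 36.6% after knockdown, so their summed share overlapped between groups. The 36.6% was that of si-*Fndc1* replicate 2, in which *mt-Atp6*, part of this total, was low at 912 FPKM. The other si-*Fndc1* libraries were at 34.4 to 35.2%.

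**Figure D2:**
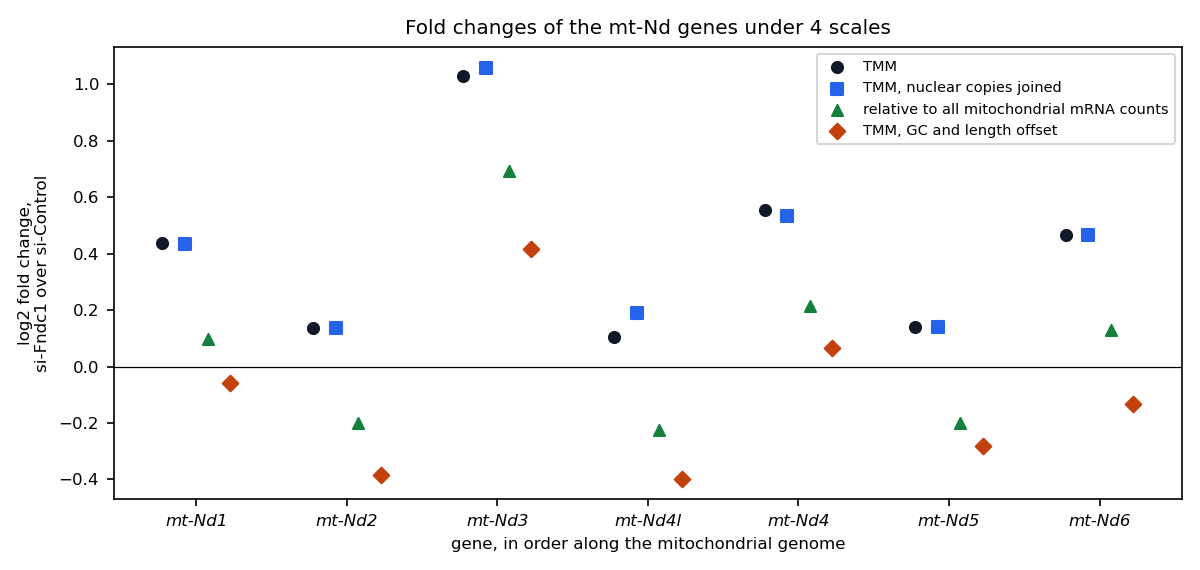
The log2 fold change of each *mt-Nd* gene (y axis; si-*Fndc1* over si-Control) is plotted in map order with TMM library scaling, with the nuclear copies joined, relative to all mitochondrial mRNA counts, and with a GC and length offset. *mt-Nd3* and *mt-Nd4* lie above 0 on all 4 scales, *mt-Nd1* and *mt-Nd6* fall below 0 with the offset, and *mt-Nd2*, *mt-Nd5* and *mt-Nd4l* fall below 0 with the offset and on the mitochondrial mRNA scale.

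Ratios of members within a library, which no library scale can alter, show the same unequal differences. The ratio of *mt-Nd5* to *mt-Nd4* in FPKM lay between 1.17 and 1.27 in the si-Control libraries, and between 0.861 and 0.933 in the knockdown libraries. By counts on the mitochondrial genes alone, *mt-Nd5* was thus above *mt-Nd4* in all 5 si-Control libraries and below it in all 5 si-*Fndc1* libraries. With its listed nuclear copy joined to *mt-Nd4*, the ratio lay between 0.778 and 0.851 in control libraries and between 0.595 and 0.642 in knockdown libraries, so *mt-Nd5* was below *mt-Nd4* in every library while the groups stayed apart. The ratio of *mt-Nd2* to *mt-Nd1*, neighbours on the map, lay between 0.390 and 0.471 with the scrambled siRNA and between 0.328 and 0.350 with *Fndc1* silenced. The ratio of *mt-Nd6* to *mt-Nd5*, which lie on opposite strands, went the other way, between 0.620 and 0.762 with the scrambled siRNA and between 0.781 and 0.947 with *Fndc1* silenced. In each of these ratios the groups did not overlap, and the corrected fold changes above give the same direction for each.

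Over all 10 libraries the order of the levels per length was *mt-Nd1* at a mean of 5554 FPKM, *mt-Nd4l* at 3360 FPKM, *mt-Nd5* at 2651 FPKM, *mt-Nd4* at 2590 FPKM, *mt-Nd2* at 2091 FPKM, *mt-Nd6* at 2032 FPKM and *mt-Nd3* at 703 FPKM. Neighbours were compared by a two-sided exact sign-flip permutation test within libraries, with Benjamini-Hochberg adjustment over the 6 pairs. 4 of 6 pairs differed. *mt-Nd1* exceeded *mt-Nd4l* in 10 of 10 libraries by a mean of 0.72 on the log2 scale, and *mt-Nd6* exceeded *mt-Nd3* in 10 of 10 by 1.60 (exact permutation test, adjusted p = 0.00391 for both, from the smallest p the design allows, 0.00195). *mt-Nd4l* exceeded *mt-Nd5* by 0.34 in 10 of 10 libraries with the same adjusted p, and *mt-Nd4* exceeded *mt-Nd2* by 0.29 in 9 of 10 (exact permutation test, adjusted p = 0.00879). In si-Control alone *mt-Nd4* exceeded *mt-Nd2* by 0.08 ± 0.09 (SD), in 4 of 5 libraries. The mean levels of *mt-Nd4* and *mt-Nd2* were 2106 and 1997 FPKM in si-Control, and 3074 and 2185 FPKM in si-*Fndc1*. That pooled difference therefore comes mostly from the si-*Fndc1* libraries. Over all 10 libraries the pair of *mt-Nd5* and *mt-Nd4* did not pass (0.06 ± 0.22, SD of 10 libraries, exact permutation test, adjusted p = 0.420), and the groups had opposite orders: *mt-Nd5* was higher by 0.26 ± 0.05 (SD) in 5 of 5 si-Control libraries, and *mt-Nd4* by 0.15 ± 0.05 (SD) in 5 of 5 si-*Fndc1* libraries. The pair of *mt-Nd2* and *mt-Nd6* did not pass either (0.06 ± 0.19, exact permutation test, adjusted p = 0.403), with *mt-Nd2* higher by 0.23 in 5 of 5 si-Control libraries and *mt-Nd6* higher by 0.10 in 4 of 5 si-*Fndc1* libraries. Within a group of 5 no pair can pass, since the smallest exact p is 0.0625. By counts on the mitochondrial genes alone, *mt-Nd3* was thus the lowest member. This order changed when the counts of the nuclear copies were joined, as given below. The counts behind *mt-Nd3*, *mt-Nd4l* and *mt-Nd4* are shared with another place in the genome.

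That place is a copy of part of mitochondrial DNA on nuclear chromosome 1. When the 7 genes were searched against build NCBIM37, all 348 bases of *mt-Nd3* matched chr1:24619611-24619958 on the minus strand with 1 mismatch, T3C (mitochondrial base first, positions counted from 1 at the first base of the gene). The first 48 bases of both are printed with that position in capitals, because a read that does not cover it fits both places.
mt-Nd3: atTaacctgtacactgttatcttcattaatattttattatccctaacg
nuclear copy of mt-Nd3: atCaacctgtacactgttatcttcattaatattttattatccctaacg
Of the 274 windows of 75 bases within *mt-Nd3*, 271 were identical in the copy, and of the 249 windows of 100 bases 246 were.

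All 297 bases of *mt-Nd4l* were identical to chr1:24619243-24619539 on the minus strand. The first 876 of the 1378 bases of *mt-Nd4*, 63.6% of the gene, were identical to chr1:24618374-24619249 on the same strand. *mt-Nd4l* is printed whole, with the 7 bases it shares with the start of *mt-Nd4* in capitals, since reads over them belong to both genes.
mt-Nd4l: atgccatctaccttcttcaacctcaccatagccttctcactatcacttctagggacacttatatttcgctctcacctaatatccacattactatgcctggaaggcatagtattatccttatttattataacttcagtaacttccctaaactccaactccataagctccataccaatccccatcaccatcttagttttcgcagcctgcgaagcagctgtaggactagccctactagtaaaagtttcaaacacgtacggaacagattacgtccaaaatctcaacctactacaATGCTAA
The best nuclear matches of *mt-Nd1*, *mt-Nd2*, *mt-Nd5* and *mt-Nd6* were 76.6 to 96.7% identical.

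The deposited table lists the nuclear copies as genes of their own, *Gm28438* for *mt-Nd3*, *Gm10222* for *mt-Nd4l* and *Gm28439* for *mt-Nd4*, all on chromosome 1. They held 8887 to 25560, 50824 to 77697 and 87339 to 161723 counts per library. Of the counts of *mt-Nd3* and its copy, between 48.9 and 58.7% lay on the mitochondrial gene in si-Control libraries, against 49.9 to 52.2% in si-*Fndc1* libraries. For *mt-Nd4l* these shares were 50.3 to 63.7% and 50.3 to 52.4%, and for *mt-Nd4* 65.2 to 72.3% and 67.9 to 69.1%. The highest share on the mitochondrial gene belonged to si-Control replicate 5 for all 3 pairs, and the share varied more among si-Control than among si-*Fndc1* libraries. How the reads were divided between the copies is not given in the sources used here, so the levels of *mt-Nd3*, *mt-Nd4l* and *mt-Nd4* alone are uncertain.

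Adding each copy to its gene raised the levels of *mt-Nd3*, *mt-Nd4l* and *mt-Nd4*. The joined counts of *mt-Nd3* were 360, 403, 324, 304 and 322 CPM (counts scaled by library size) in si-Control and 725, 678, 711, 745 and 705 CPM in si-*Fndc1*. These groups were as far apart as before, with a ratio of means of 2.08 and a log2 fold change of 1.06. Joined *mt-Nd4* gave 4759 ± 253 (SD, n = 5) and 6878 ± 363 CPM (SD, n = 5), a ratio of 1.45 and a log2 fold change of 0.53. Joined *mt-Nd4l* gave 1948 ± 191 and 2218 ± 115 CPM (SD, n = 5 each), a ratio of 1.14 and a log2 fold change of 0.19 in place of 0.10 for the gene alone, with overlapping groups. With the copies joined, *mt-Nd4l* had the highest level per length at a mean of 6308 FPKM, above *mt-Nd1* at 5554 FPKM in 9 of 10 libraries (exact permutation test, adjusted p = 0.00469). *mt-Nd4* followed at 3797 FPKM, above *mt-Nd5* in 10 of 10 libraries (exact permutation test, adjusted p = 0.00293), and *mt-Nd3* stayed the lowest at 1363 FPKM.

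**Figure D3:**
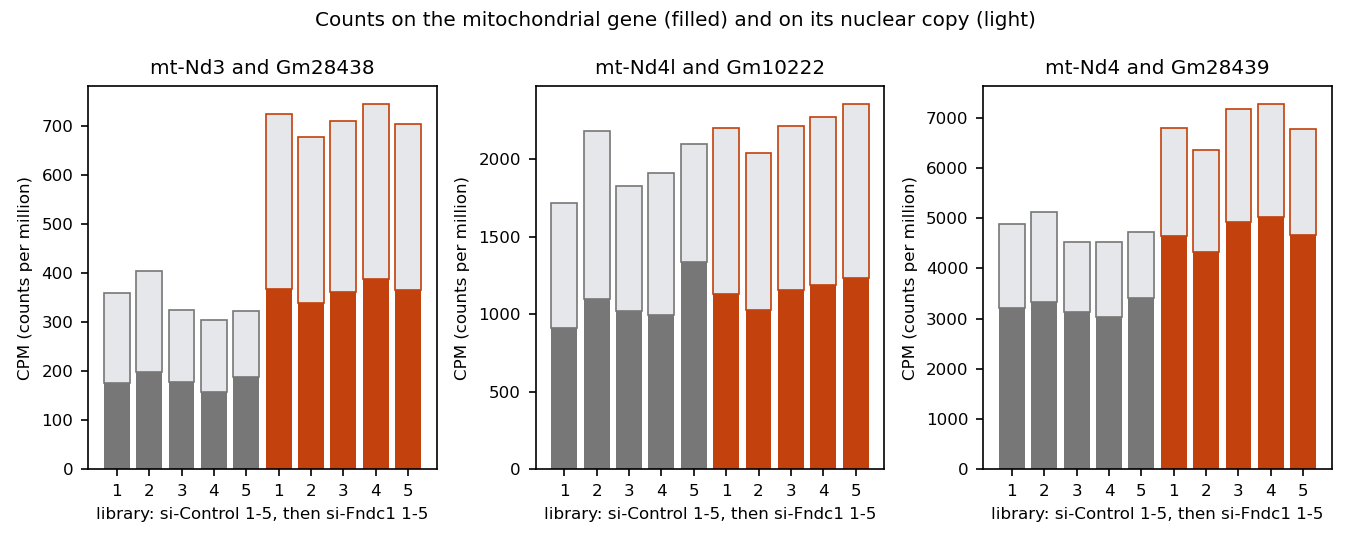
Stacked bars give the CPM (counts scaled by library size, y axis from 0) on *mt-Nd3*, *mt-Nd4l* and *mt-Nd4* (filled) and on the listed nuclear copy of each (light) in each of the 10 libraries. For *mt-Nd3* and *mt-Nd4l* the bar is divided near its middle, and the whole bar of *mt-Nd3* runs from 304 to 403 CPM in si-Control and from 678 to 745 CPM in si-*Fndc1*.

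A second place where members share reads is the end of *mt-Nd5*, which runs into the end of *mt-Nd6* on the other strand. The 14 shared bases are in capitals at the end of each gene, printed 5′ to 3′ on its own strand.
mt-Nd5: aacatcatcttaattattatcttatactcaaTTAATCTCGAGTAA
mt-Nd6: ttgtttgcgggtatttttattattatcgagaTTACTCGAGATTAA
Whether counting used the strand of the reads is not given in the sources used here. Without it, RNA of the strand opposite a gene would be counted on the gene too, which matters most for *mt-Nd6*, the lower of the pair.

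The other genes of the mitochondrial genome give the setting of the members. Of the 6 other mitochondrial mRNAs, 4 rose and 0 fell in the fit over all genes, beside 17.3% of tested genes upward and 17.2% downward. With the GC and length offset 1 of the 6 rose and 1 fell. *mt-Co3*, a core subunit of cytochrome c oxidase and the mRNA just before *mt-Nd3* on the map, went from 2414 ± 200.3 to 4119 ± 153 FPKM (n = 5 each, SD), a rise of 0.78 ± 0.06 on the log2 scale (SE; quasi-likelihood test of edgeR, Benjamini-Hochberg correction, adjusted p = 1.21e-05). The difference of *mt-Nd3* in this contrast, 1.03, was thus above that of its neighbour, and the ratio of *mt-Nd3* to *mt-Co3* lay between 0.185 and 0.200 in si-Control libraries and between 0.220 and 0.234 in si-*Fndc1* libraries. *mt-Co2* rose by 0.50, *mt-Co1* by 0.35 and *mt-Atp8* by 0.34 in the same fit, and *mt-Co1*, *mt-Co2* and *mt-Atp8* changed sign with the GC and length offset while *mt-Co3* stayed at or above 0.29. *mt-Cytb*, which lies after *mt-Nd6* and encodes cytochrome b, went from 6124 ± 358 to 6557 ± 326 FPKM (n = 5 each, SD), and its log2 difference of 0.11 did not pass (same edgeR test, adjusted p = 0.116). *mt-Atp6* was at 0.36 with an adjusted p of 0.492, and si-*Fndc1* replicate 2 held 912 FPKM of it where the other si-*Fndc1* libraries held 4784 to 5617 FPKM. The 2 mitochondrial rRNAs also rose, *mt-Rnr1* by 0.38 and *mt-Rnr2* by 0.51. No GC content was available for them, so the GC and length offset was not run on the rRNAs.

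The tRNA genes were described after their values were seen, and several of them held few counts. Of the 8 tRNA genes on the light strand, the strand of *mt-Nd6*, 8 were tested and 6 rose. Of the 13 tested on the strand of the other members 2 rose and 1 fell, beside 17.3% of all tested genes upward and 17.2% downward. *mt-Tq* and *mt-Ts1*, light-strand genes not called, held 23 to 49 and 8 to 27 counts per library. *mt-Tf*, *mt-Tg* and *mt-Tr*, on the other strand and not called, held at most 19. *mt-Tl2*, the gene of that strand that fell, held 25 to 458 counts and was at −1.99 (quasi-likelihood test of edgeR, Benjamini-Hochberg correction, adjusted p = 0.016). It measured 76.1, 42.5, 20.1, 11.1 and 13.5 FPKM in si-Control and 4.44 to 13.3 FPKM in si-*Fndc1*, with overlap. *mt-Th*, on the same strand, held 30 to 343 counts and was at −1.32 without a call. *mt-Tl1*, also on that strand, held 934 to 1748 counts and rose by 0.71. Whether the calls follow strand or count level was not tested. *mt-Tp*, a light-strand tRNA gene, was at 134, 126, 112, 105 and 105 FPKM in si-Control and 228, 204, 198, 227 and 240 FPKM in si-*Fndc1*. *mt-Te*, the tRNA gene beside *mt-Nd6*, rose by 0.51 and *mt-Tn* by 1.17. The missing account of strand applies to these values as well. The tRNA genes had no GC content either, so the GC and length offset was not run on them.

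In all, the 7 members took 1.79 ± 0.0852% (SD, n = 5) of the counts in si-Control and 2.25 ± 0.108% (SD, n = 5) in si-*Fndc1*, without overlap. All 37 mitochondrial genes together took 4.90 to 5.49% and 5.82 to 6.91%. Another set moved with the groups: 15 of 15 hepatocyte markers, among them *Alb*, were higher in every si-*Fndc1* library, beside 12.1% of tested genes. Their summed level had a median of 1.84 FPKM and a maximum of 6.996 FPKM in si-Control, against 52.4 to 186 FPKM after knockdown. In si-Control, *Apoa2* and *Alb* were without a count in at least 1 library. In replicates 1 to 5 of si-*Fndc1*, the summed hepatocyte level was 105, 186, 180, 182 and 52.4 FPKM, and the *mt-Nd* share of counts 2.20, 2.09, 2.35, 2.33 and 2.30%. The part of hepatocyte RNA in the *mt-Nd* levels was not tested. Erythroid markers summed to 0.660 to 1.83 FPKM in control libraries and 1.69 to 2.53 FPKM in knockdown libraries, and adipocyte, endothelial and leukocyte markers summed to at most 1.17 FPKM in any library. The 4 neuronal markers were at 34.5 to 37.9 and 30.6 to 37.8 FPKM, with 2 of the 4 without a count anywhere.

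**Figure D4:**
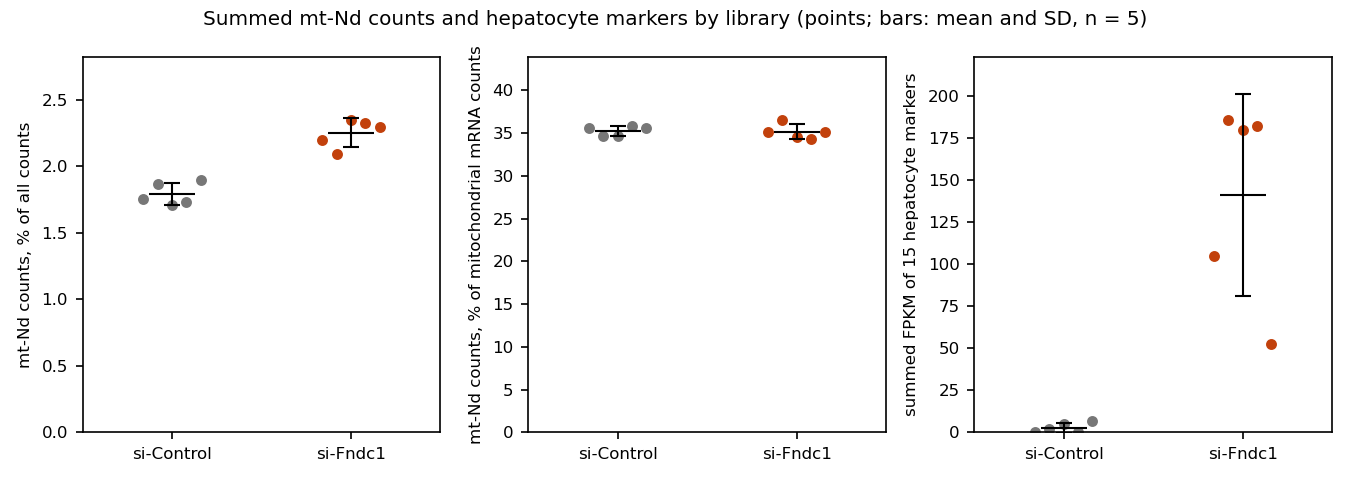
Points are the 10 libraries, with bars for mean and SD. The panels plot the *mt-Nd* share of all counts (1.79% and 2.25% on average, without overlap), the *mt-Nd* share of mitochondrial mRNA counts (overlapping between groups) and the summed FPKM of 15 hepatocyte markers (at most 6.996 in si-Control, at least 52.4 in si-*Fndc1*), each from 0.

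The nuclear genes of complex I were tested in the same fit. Of the 37 nuclear genes for complex I subunits that were tested, 19 rose and 1 fell, or 54.1% called against 34.4% of all genes, with a median log2 fold change of 0.12. The 7 core subunits of the peripheral arm held 2 that rose and 0 that fell (28.6% called). *Ndufv2*, an iron-sulfur subunit of the NADH-binding module, went from 27.8 ± 3.16 to 41.3 ± 3.94 FPKM (n = 5 each, SD), or 0.58 on the log2 scale (quasi-likelihood test of edgeR, Benjamini-Hochberg correction, adjusted p = 0.000412). *Ndufs1*, the largest core subunit, rose by 0.11 (adjusted p = 0.0266 in the same edgeR test), a call that was lost without si-Control replicate 3, si-Control replicate 5 or si-*Fndc1* replicate 3. The *Ndufs1* call was also lost with no filter, with the replicate number as a block and with the GC and length offset. *Ndufv2* lost its call with offset and block together. The 5 other core subunits ran from −0.09 to 0.12 and did not pass in the same fit. With the GC and length offset, 1 core subunit rose and 1 fell.

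Among 30 accessory subunits 17 rose and 1 fell, with a median log2 fold change of 0.26. *Ndufb4* rose by 0.72, *Ndufb1* by 0.71, *Ndufs6* by 0.69 and *Ndufb9* by 0.65 (quasi-likelihood test of edgeR, Benjamini-Hochberg correction, adjusted p of 4.72e-05 or less), and *Ndufb4*, *Ndufs6* and *Ndufb9* kept their direction and their call in all 21 alternatives. *Ndufb1* kept both in the 18 alternatives run for it, which leave out the GC and length offset. *Ndufb4*, *Ndufb1* and *Ndufb9* belong to the membrane arm beside the mitochondrially encoded pumps, and *Ndufs6* is a zinc-binding subunit of the peripheral arm. *Ndufc2*, named because it was the single one to fall, fell by 0.21 on the log2 scale (adjusted p = 0.0397, same edgeR test), a call that was lost when any of si-Control replicates 2 to 5 or si-*Fndc1* replicate 1, 2 or 4 was left out, with no filter and with the replicate number as a block. *Ndufb11*, a further subunit of the membrane arm, was at 98.1 ± 6.13 and 101 ± 5.94 FPKM (log2 fold change 0.04, adjusted p = 0.564). With the GC and length offset, 12 accessory subunits rose and 6 fell of 29 that had a GC content.

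**Figure D5:**
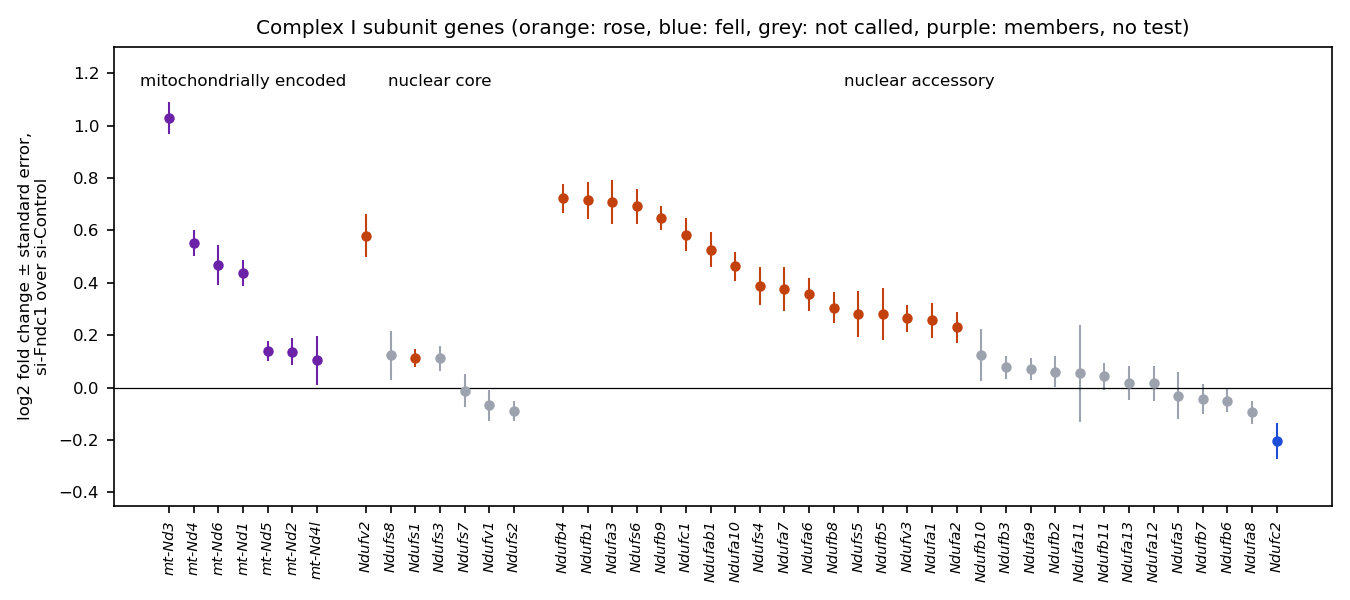
Log2 fold changes (si-*Fndc1* over si-Control) with standard errors are plotted for the 7 mitochondrially encoded, 7 nuclear core and 30 nuclear accessory genes of complex I, sorted within each class, with TMM scaling and no GC offset. *mt-Nd3* at 1.03 stands above all nuclear subunit genes, of which *Ndufb4* is the highest at 0.72.

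Complex I assembly factors are helpers that join the modules and leave the finished complex. Of 16 tested, 5 rose and 0 fell, or 31.3% called, close to the 34.4% of all genes: *Tmem126b* by 0.44, *Ndufaf2* by 0.39, *Ndufaf5* by 0.27, *Ndufaf1* by 0.25 and *Ndufaf4*, which has the largest p of the 5, by 0.64. *Tmem126b* is a membrane protein of the assembly complex for the membrane arm, and its level went from 3.84 ± 0.373 to 5.17 ± 0.508 FPKM (n = 5 each, SD; quasi-likelihood test of edgeR, Benjamini-Hochberg correction, adjusted p = 0.00224). With the GC and length offset 2 rose and 2 fell, and *Ndufaf1* was at −0.01 in its lowest alternative.

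Most of the called genes for making and keeping mitochondrial RNA rose, while *Polrmt* and *Fastk* fell. Of 16 genes of mitochondrial transcription and DNA maintenance, 6 rose and 1 fell (43.8% called, beside 34.4% of all tested genes). *Polrmt*, the RNA polymerase that transcribes mitochondrial DNA, fell by 0.40 on the log2 scale, from 7.28 ± 0.745 to 5.46 ± 0.274 FPKM (n = 5 each, SD; quasi-likelihood test of edgeR, Benjamini-Hochberg correction, adjusted p = 0.0016). *Tfam*, which packs mitochondrial DNA and starts transcription with the polymerase, rose by 0.17 (adjusted p = 0.0226, same edgeR test), and *Mterf3* rose by 0.77 and *Top1mt* by 0.21. *Top1mt* was called in 11 of 20 alternatives, and its call was lost without si-Control replicate 3, 4 or 5, without si-*Fndc1* replicate 2, 3 or 4, with no filter and with the replicate block. *Tfam* lost its call without si-Control replicate 4 (or 5) and without si-*Fndc1* replicate 1 (or 4), and the list as a whole fell from 7 calls to 4, 3 or 2 when si-Control replicate 3, 4 or 5 was left out, and to 2 when si-*Fndc1* replicate 4 was. With the offset *Polrmt* was at −0.12 or lower and did not pass.

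Of 18 genes of mitochondrial RNA processing and stability, 7 rose and 1 fell (44.4% called). *Mtres1*, an RNA-binding protein of mitochondria, rose by 0.33, *Pnpt1*, a ribonuclease of mitochondria, by 0.33, and *Trmt10c*, part of the enzyme that cuts tRNAs at their front end, by 0.31. *Fastk*, whose mitochondrial form is needed for *mt-Nd6* mRNA, fell by 0.34 on the log2 scale, from 10.3 ± 0.468 to 8.09 ± 0.489 FPKM (n = 5 each, SD; quasi-likelihood test of edgeR, Benjamini-Hochberg correction, adjusted p = 0.000451). *Fastk* lost its call with the GC and length offset, and its part in the *mt-Nd6* level was not tested. With the GC and length offset 1 gene of this list was called. Of 7 tested regulators of mitochondrial biogenesis, 1 rose and 2 fell: *Gabpa* rose by 0.14, *Ppargc1b*, a coactivator of mitochondrial genes, fell by 0.69 on the log2 scale and *Esrra* fell by 0.25, and *Gabpa* and *Esrra* changed sign with the offset.

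The nuclear genes whose levels followed *mt-Nd3* most closely across the 10 libraries included *Polr2l*, *Atp5l*, *S100a11* and *Rpl27a*, with Pearson r of 0.994 to 0.996 among 6894 genes with a mean of at least 5 FPKM. Those closest to the summed *mt-Nd* counts were *Ssr3*, *Mrps15*, *Rpl24*, *Rpl27* and *Itm2b*, with r of 0.981 to 0.988. These correlations are a description over 10 libraries that fall in 2 groups, and the genes share those libraries.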

How the data were processed

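The table covers total RNA of 10 C2C12 libraries, although the paper's methods speak of 4 RNA-seq libraries, so what the 5 libraries of a group are replicates of is uncertain. The authors deposited 1 table of genes, which gives per library the count of reads and the FPKM. The paper's methods name TopHat, mm10 and htseq-count, the series text STAR and mm9, and the labels GRCm39, cutadapt 1.9 and FastQC. Deposited FPKM are scaled by library size and by a gene length that equals the listed span for the 7 members and was not checked for other genes, and genes with a count of 0 carry 0.0001. Members and gene lists were chosen with earlier results of these data known.

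Counts were fitted over 13548 genes with a mean of at least 0.5 FPKM by edgeR 4.0.16 (R 4.3.3), TMM scaling and the quasi-likelihood test, with Benjamini-Hochberg adjustment over all of them and a threshold of 0.05. Levels were taken from FPKM. The same fit was tested on simulated data and recovered 99 of 100 genes changed by 1 and 88 of 100 changed by 0.5 on the log2 scale. It also called 4 unchanged genes. That simulation changed 200 of 13548 genes, gave every gene the same relative spread and held no GC trend. It therefore cannot show how the fit behaves under the base composition trend of these data. Nuclear copies were found with blastn 2.17.0 on NCBIM37. Alternatives were DESeq2 1.42.0, other scalings and filters, leaving out each library, a replicate block, limma 3.58.1 on log2(FPKM + 1), a GC and length offset, the mitochondrial mRNA total as scale and, added after the data were seen, joining nuclear copies. Named genes were all 7 members, the other mitochondrial mRNAs and rRNAs, *Fndc1*, *Ndufb11*, *Tfam* and up to 4 called genes with the smallest p per list. Depth was 56332844 to 75995168 counts per library. Among the genes most like *mt-Nd3*, 1 is not reported here.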

Additional observations from a re-analysis of the deposited data

Results flagged for a closer look

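In si-*Fndc1*, *mt-Atp6* was at 912 FPKM in replicate 2, far from the other 4 libraries of its group, which held 4784 to 5617 FPKM. Of the counts of *mt-Atp6* and its listed nuclear copy *Gm10925*, 15.04% lay on the mitochondrial gene in that library, against 48.0 to 51.1% in the other si-*Fndc1* libraries. The joined counts of gene and copy were also low there, at 4612 CPM against 7569 to 8398 CPM in the others. The si-*Fndc1* values of *mt-Atp6* were 1 of 42 groups of 5 libraries examined for a value standing apart, and chance alone marks about 1 group in 20. No group of *mt-Nd* values stood apart in this way.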

How the results depend on the processing

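The log2 fold changes of the 7 members kept their direction under other library scalings over all genes, other tools and filters, without any 1 library and with the nuclear copies joined. The GC and length offset, and the offset with the replicate number as a block, moved or reversed them: *mt-Nd1* to −0.059 and −0.060, *mt-Nd2* to −0.38 and −0.38, *mt-Nd3* to 0.42 and 0.42, *mt-Nd4* to 0.067 and 0.067, *mt-Nd4l* to −0.40 and −0.38, *mt-Nd5* to −0.28 and −0.28 and *mt-Nd6* to −0.13 and −0.12. Relative to mitochondrial mRNA counts they were 0.10, −0.20, 0.69, 0.21, −0.23, −0.20 and 0.13 in the same order. Genes called fell from 4663 to 2518 with the offset (4244 of the same 11185 genes without it) and to 1650 with offset and block. The replicate block alone gave 3572, with *mt-Nd3* at 1.03.

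Calls per list also moved. Core subunits fell from 2 to 1 with no filter, 1 with the replicate block and 0 with offset and block (1 to 2 without 1 library). Assembly factors fell from 5 to 1 at a mean of at least 5 FPKM and to 1 with offset and block. Transcription genes fell from 7 to 4 with no filter, 3 at 5 FPKM, 3 with the block and 2 with offset and block (2 to 8 without 1 library). RNA processing genes fell from 8 to 5 at 5 FPKM and to 1 with the offset, with or without the block. Biogenesis regulators fell from 3 to 1 with offset and block, and other mitochondrial mRNAs from 4 to 2 with the offset, with or without the block. At 5 FPKM fewer genes are tested. The cause of the other changes was not tested.

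The replicate numbers did not pair the libraries: same-numbered deviations correlated at −0.05 to 0.05, and 1 of 5 libraries matched its own number best. The order of levels and its 4 of 6 differing pairs were kept without any 1 library and per kilobase of count. With the copies joined the order itself changed, and 5 of 6 pairs of neighbours differed in the new one. Within 1 group of 5 the smallest p is 0.0625, so no pair can pass. The depth of at least 56332844 counts left each member with at least 11386 counts in every library.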
